A study of Mus musculus with 6 samples.

Results

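The 39 genes described here code for the machinery of macroautophagy and mitophagy, from the initiating kinase complex to the lysosomal membrane. They were chosen by name for their known roles, with earlier results of these data known, so their shares beside all genes are descriptions. Each of the 39 matched 1 Ensembl identifier among the 37620 genes of the deposited table. All 39 passed the filter on low counts and were tested together with 14738 genes, and the least covered value of any member was 97 reads in 1 library. Polyadenylated RNA was sequenced from the cardiac apex of wild-type mice (C57/BL6J) whose hearts had undergone ischaemia for 30 min and reperfusion for 120 min. The 3 vehicle samples came from mice given the vehicles of yohimbine and of dexmedetomidine before surgery. The 3 dexmedetomidine samples came from mice given the vehicle of yohimbine 30 min before 10 µg/kg of dexmedetomidine (a sedative that activates alpha-2 adrenoceptors), with surgery 20 min after the drug. Infusions went into the tail vein over 10 min. Both groups were therefore ischaemic and reperfused, no uninjured heart was analysed here, and the labels give the timing only for the dexmedetomidine group.

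In macroautophagy a double membrane grows around cytoplasm, protein aggregates or organelles, closes to an autophagosome and fuses with a lysosome. A kinase complex around ULK1 starts the process, a lipid kinase complex marks the membrane with phosphatidylinositol 3-phosphate, and conjugation reactions that resemble ubiquitin transfer attach ATG8 proteins (the LC3 and GABARAP families) to the membrane lipid. Receptors with an ATG8-binding motif then bring in cargo, and in mitophagy the cargo is the mitochondrion. The heart is rich in mitochondria, and autophagy is known there as a response to energy shortage and as a means of removing damaged organelles. RNA levels do not show how much membrane or cargo was turned over, since many of these proteins are controlled after translation.

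Counts over all genes summed to 50274670 to 56615882 per vehicle library and to 42691399 to 48636790 per dexmedetomidine library, so depth did not overlap between groups. Cardiomyocyte markers dominated as the tissue label implies, with a summed level of 49632 to 57313 CPM (each gene's count scaled to the TMM-adjusted library size) after vehicle and 44337 to 48409 after dexmedetomidine. Of the 12 markers Tnnc1 was at 0 throughout, and whether this reflects its expression or the counting was not examined. Of the 11 tested, 5 were lower at an unadjusted p under 0.05 and 1 was higher, beside 9.03% and 12.5% of all genes. Fibroblast markers summed to 1033 to 1132 CPM after vehicle and 1236 to 1448 after dexmedetomidine, with none of the 9 at 0. The fitted level was higher for 6 and lower for 3. At an unadjusted p under 0.05, 5 were higher and 0 lower, beside 12.5% and 9.03% of all genes. Mitochondrially encoded genes took 22.01% to 25.2% of gene counts after vehicle, and 27.1%, 36.9% and 38.2% in dexmedetomidine replicates 1 to 3. The mean log2 level of either marker list and the mitochondrial share did not overlap between groups (exact two-sided permutation p = 0.1 each, the smallest that 3 against 3 can give, adjusted 0.367 over 11 measures), and their part in the results below was not tested. Smooth muscle and pericyte markers summed to 977 to 1097 CPM with vehicle, against 1290.3 to 1463 with dexmedetomidine, but 5 of 7 had a lower fitted level and their mean log2 level overlapped (exact permutation p = 0.5, adjusted 0.9). In a piece of tissue, fewer cells of a type and less RNA per cell cannot be told apart.

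Against this background the median of the autophagy list lay near that of all genes. After dexmedetomidine the fitted level was higher for 19 members and lower for 20, with a median log2 fold change of -0.020 (dexmedetomidine minus vehicle) against 0.0032 over all genes tested. Inside the list members went both ways. Rb1cc1, the scaffold of the initiating kinase complex, was 4.29-fold higher, the protease gene Atg4c 1.85-fold and the conjugation gene Atg12 1.40-fold. Map1lc3a, an ATG8 protein gene, was 1.63-fold lower and the mitophagy kinase gene Pink1 1.6-fold.

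No member passed an adjusted p of 0.05 in edgeR's quasi-likelihood test, where 0% of all genes passed and the smallest adjusted p of a member was 0.102. At an unadjusted p under 0.05, edgeR had 12 of 39 members (30.8%), beside 21.5% of all genes tested. Of these, 7 were higher (17.9%, beside 12.5% of all genes) and 5 lower (12.8%, beside 9.03%). DESeq2 called 5 members at its adjusted threshold of 0.05 (Rb1cc1, Atg4c, Atg12, Map1lc3a and Pink1), beside 9.43% of genes, and limma-voom with quality weights called these and Atg4a, Atg4d and Bnip3l, beside 14% of genes. The ranges of both groups stayed apart for 15 members (38.5%), 9 higher and 6 lower, beside 27.6% of all genes, 15.6% higher and 12% lower. Without vehicle replicate 3 edgeR called 1251 genes, 8.31% of those tested, among them Rb1cc1 (adjusted p = 0.0109), Map1lc3a (0.0352) and Pink1 (0.0414). With no filter on low counts it called Pink1 and Map1lc3a, beside 1.88% of genes.

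**Figure D1:**
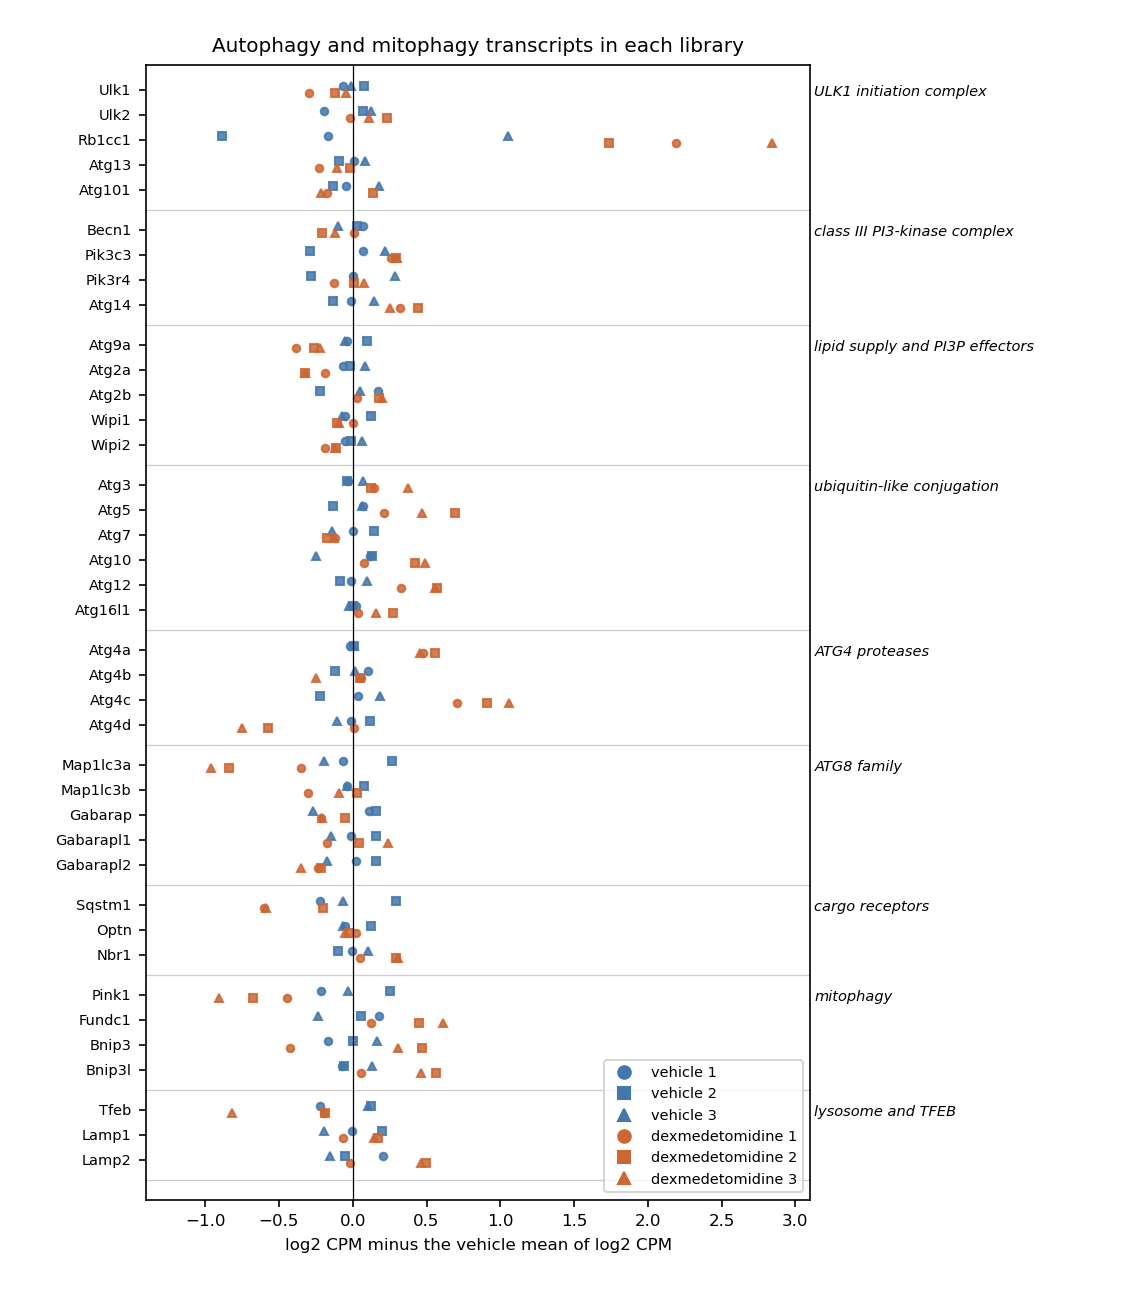
Log2 CPM of each of the 39 members in each library, minus the mean of log2 CPM over the 3 vehicle libraries, by role, with vehicle in blue, dexmedetomidine in orange and 1 symbol per replicate number. Rb1cc1 spreads most, Pink1 and Map1lc3a lie to the left of the vehicle libraries, and Atg12, Atg5, Atg4a and Atg4c to the right.

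Members with GC-poor transcripts were mostly higher after dexmedetomidine and those with GC-rich transcripts mostly lower. The 7 members higher at an unadjusted p under 0.05 had a GC content between 38.8% and 44.6% in their longest annotated transcript, and the 5 lower ones between 54.0% and 63.1%, so the ranges did not meet. Across the 39 members Spearman's rho between GC content and log2 fold change was -0.83, and across 14329 tested genes with a value it was -0.63. Points share the same 6 libraries, so these are descriptions, and the cause of the trend was not tested. When each library's smooth trend with GC content and gene length was removed, rho over the members was 0.15, and 13 of 39 members had the other sign. Then 8 members (20.5%) had an unadjusted edgeR p under 0.05, beside 12.6% of genes, and groups did not overlap for 9 (23.1%), beside 22.3%. The corrected log2 fold change is therefore given below for members described by library.

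**Figure D2:**
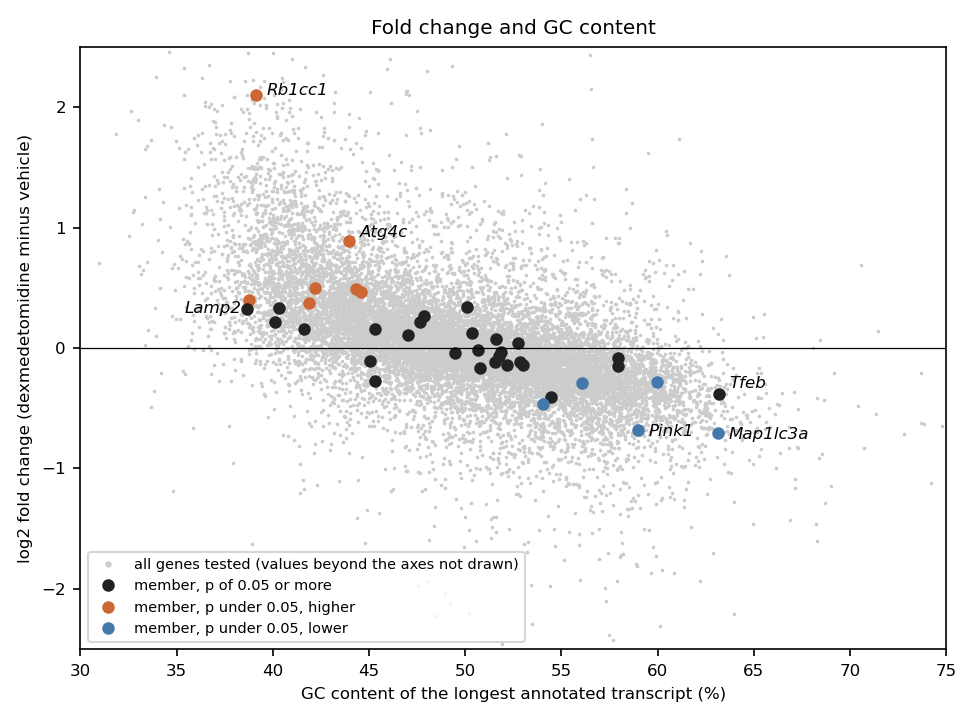
Log2 fold change (dexmedetomidine minus vehicle, edgeR) against the GC content in percent of the longest annotated transcript, for all tested genes in grey and the 39 members in black, orange or blue. Members higher at an unadjusted p under 0.05 (orange) lie below 45% GC, and those lower (blue) lie above 54%.

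Promoter sequences from RefSeq (GRCm38.p6, 250 bases before to 50 after the annotated start) were at hand for 32 members, with 37 entries. CACGTG, the E-box core that TFEB binds in lysosomal and autophagy genes, was found on either strand in 6 of these 37 entries (16.2%), beside 7.15% of 32851 promoters of all genes. The 6 members were Atg3, Atg5, Atg7, Atg14, Bnip3 and Lamp1. TCACGTGA, which contains that core, was in the Atg3 entry, beside 0.974% of all promoters. TGACGTCA, the cyclic AMP response element, was in the Atg5 entry, beside 1.79% of all, and GTAAACA, a forkhead motif, in none of the 37, beside 3.65%. A match is a description of letters, not of binding. Median GC content was 56% in the 6 entries of members higher at an unadjusted edgeR p under 0.05, 61.3% in the 4 of lower members and 60.7% in the other 27. Over all promoters it was 52.7%, and the part of GC content in the motif shares was not tested. The members with no entry were Atg12, Atg16l1, Becn1, Bnip3l, Map1lc3a, Pik3c3 and Rb1cc1. The log2 fold changes of the 6 members with CACGTG were 0.22 for Atg3, 0.47 for Atg5, -0.14 for Atg7, 0.34 for Atg14, 0.16 for Bnip3 and 0.078 for Lamp1. Of these 5 were above 0 and, with the correction, 3 (Atg5, Atg14 and Lamp1), beside 7408 and 6731 of all 14738 genes. Shown 5′ to 3′, with CACGTG and TGACGTCA in capitals, are Atg5 and Atg3, which hold the motifs, and Pink1, which had neither and the lowest log2 fold change of the members with an entry. In the Atg5 entry the capitals start 14 bases and 1 base before the annotated start, and in the Atg3 entry 94 and 71 bases before it.
Atg5 (chr10:44268089-44268388, plus strand): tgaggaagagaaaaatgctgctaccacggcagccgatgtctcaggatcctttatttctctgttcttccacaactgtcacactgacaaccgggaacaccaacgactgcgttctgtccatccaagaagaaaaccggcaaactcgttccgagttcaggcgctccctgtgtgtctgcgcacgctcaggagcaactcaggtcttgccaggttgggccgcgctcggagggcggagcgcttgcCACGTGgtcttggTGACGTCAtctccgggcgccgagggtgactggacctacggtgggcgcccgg
Atg3 (chr16:45158579-45158878, plus strand): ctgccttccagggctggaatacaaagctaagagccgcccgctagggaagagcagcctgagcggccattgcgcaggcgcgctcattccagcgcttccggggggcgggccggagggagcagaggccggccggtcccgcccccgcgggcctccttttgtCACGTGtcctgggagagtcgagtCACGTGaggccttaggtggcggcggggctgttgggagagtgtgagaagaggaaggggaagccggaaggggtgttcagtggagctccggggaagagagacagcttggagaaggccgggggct
Pink1 (chr4:138326247-138326546, minus strand): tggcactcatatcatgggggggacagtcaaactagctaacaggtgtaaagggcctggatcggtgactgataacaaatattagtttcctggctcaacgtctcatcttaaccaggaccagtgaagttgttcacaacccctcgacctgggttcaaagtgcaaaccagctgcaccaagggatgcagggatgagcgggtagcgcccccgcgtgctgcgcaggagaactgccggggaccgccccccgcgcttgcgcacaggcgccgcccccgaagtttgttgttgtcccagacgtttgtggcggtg

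Among the 5 genes of the initiating kinase complex, Rb1cc1 stood apart from the other 4. Rb1cc1 (ENSMUSG00000025907) codes for FIP200, the scaffold that holds ULK1, ATG13 and ATG101 together. It measured 12.4, 7.56 and 29.0 CPM in vehicle replicates 1 to 3, against 63.7, 46.7 and 100.2 in dexmedetomidine replicates 1 to 3. Every dexmedetomidine library was above every vehicle library, but the libraries differed widely within each group, with 16.3 ± 11.2 CPM with vehicle, against 70.2 ± 27.3 with dexmedetomidine (SD, n = 3 each). The log2 fold change was 2.10 (SE 0.49, edgeR adjusted p = 0.109). With the GC and length correction it was 1.29, with an edgeR adjusted p of 0.291, and DESeq2 with the same correction called Rb1cc1 alone among the members (adjusted p = 8.11e-05), beside 2.32% of genes. The same correction in limma-voom left 0 genes and 0 members called. Leaving out 1 library gave log2 fold changes of 1.76 to 2.81, the highest without vehicle replicate 3. An antisense gene, 4732440D04Rik, overlaps exons of Rb1cc1 and was counted at 0.0513 to 0.411 CPM in the 6 libraries. Rb1cc1 has the longest gene model of the list, with 14690 bases, and a GC content of 39.1%.

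The kinase genes themselves lay close to their vehicle levels. Ulk1 (ENSMUSG00000029512), the main autophagy-initiating kinase, measured 124, 137 and 129 CPM with vehicle, against 106, 119.7 and 126 with dexmedetomidine. The groups overlapped (log2 fold change -0.15, SE 0.12), and the corrected value was 0.10. Its relative Ulk2 was at 0.10 (SE 0.13), the regulatory subunit gene Atg13 at -0.12 (SE 0.12) and Atg101 at -0.083 (SE 0.16), and their groups overlapped too. The ratio of Ulk1 to Ulk2 within a library does not depend on library size. On a log2 scale of (CPM + 2) it was 0.73, 0.62 and 0.47 with vehicle, against 0.33, 0.26 and 0.45 with dexmedetomidine, without overlap. The difference was -0.26 (SE 0.093, exact permutation p = 0.1, adjusted 0.267 over 8 pairs). Corrected for GC and length, this difference was 0.14.

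The class III phosphatidylinositol 3-kinase complex makes the lipid mark of the growing membrane. Becn1 (ENSMUSG00000035086), its Beclin 1 subunit, measured 29.7, 28.9 and 26.4 CPM with vehicle, against 28.5, 24.5 and 26.0 with dexmedetomidine, with overlapping groups. Its log2 fold change was -0.11 (SE 0.13), and -0.40 with the correction, where the unadjusted edgeR p was under 0.05 and the adjusted p 0.320. Atg14, which directs the complex to the site of autophagosome formation, measured 10.0, 9.19 and 11.2 CPM with vehicle, against 12.6, 13.7 and 12 with dexmedetomidine. Its 3 dexmedetomidine values were all above the vehicle values, and its log2 fold change of 0.34 (SE 0.15, edgeR adjusted p = 0.234) was 0.35 with the correction. The catalytic subunit gene Pik3c3 was at 0.27 (SE 0.16), also without overlap, since vehicle libraries ranged from 12.7 to 18.1 CPM and dexmedetomidine libraries from 18.6 to 19.0. The pseudokinase subunit gene Pik3r4 was at -0.030 (SE 0.17).

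Genes that bring lipid to the membrane or read its lipid mark were lower for 4 of 5 members. Of these, 2 had an unadjusted edgeR p under 0.05, beside 9.03% of all genes lower at it, and none passed the adjusted threshold. Atg9a (ENSMUSG00000033124) codes for a scramblase on vesicles that seed the membrane. It measured 89.8, 98.8 and 89.0 CPM with vehicle, against 70.7, 77.2 and 79.1 with dexmedetomidine. Atg2a (ENSMUSG00000024773), a lipid transfer protein gene, measured 41.4, 42.8 and 45.8 CPM with vehicle, against 37.9, 34.5 and 34.5 with dexmedetomidine. In both, every dexmedetomidine library was below every vehicle library. Log2 fold changes were -0.29 for Atg9a (SE 0.11, edgeR adjusted p = 0.180) and -0.28 for Atg2a (SE 0.11, edgeR adjusted p = 0.196), and -0.081 and -0.016 with the correction. Atg2b, which does the same work as Atg2a, was at 0.13 (SE 0.14). The log2 ratio of Atg2a to Atg2b was 0.46, 0.87 and 0.71 after vehicle and 0.48, 0.21 and 0.19 after dexmedetomidine, where dexmedetomidine replicate 1 lay among the vehicle values (exact permutation p = 0.2, adjusted 0.267). The genes Wipi1 and Wipi2, whose products read the lipid mark, were at -0.065 (SE 0.11) and -0.14 (SE 0.11). For Wipi2 the groups did not overlap, at 40.9 to 44.2 CPM and 37.2 to 39.2.

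The conjugation genes were higher for 5 of 6 members, beside 7408 of all 14738 genes, with a median log2 fold change of 0.27. Of these, 2 had an unadjusted edgeR p under 0.05, beside 12.5% of all genes higher at it, and none passed the adjusted threshold. With the GC and length correction 2 of the 6 were higher and 4 lower. ATG12 is joined to ATG5 through ATG7 and ATG10, and the pair with ATG16L1 then helps ATG3 to attach ATG8 proteins to lipid. Atg12 (ENSMUSG00000032905) measured 21.9, 20.8 and 23.6 CPM with vehicle, against 27.7, 32.8 and 32.5 with dexmedetomidine. Its partner Atg5 (ENSMUSG00000038160) measured 11.9, 10.3 and 11.8 CPM with vehicle, against 13.1, 18.3 and 15.7 with dexmedetomidine. All 3 dexmedetomidine libraries exceeded all 3 vehicle libraries for both genes, and dexmedetomidine replicate 1 was the lowest of its group for both. Atg12 had a log2 fold change of 0.49 (SE 0.13, edgeR adjusted p = 0.109, DESeq2 adjusted p = 0.0446) and Atg5 of 0.47 (SE 0.16, edgeR adjusted p = 0.148, DESeq2 adjusted p = 0.124). With the correction they were at 0.22 and 0.23.

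The other conjugation genes were smaller in difference. The E2-like enzyme genes Atg3 and Atg10 were at 0.22 (SE 0.13) and 0.33 (SE 0.17), Atg16l1 at 0.16 (SE 0.12) and the E1-like Atg7 at -0.14 (SE 0.14). Atg3 and Atg16l1 did not overlap between groups. With the GC and length correction Atg3, Atg10 and Atg16l1 were at -0.47, -0.31 and -0.16, the other direction, and the 6 conjugation genes had a median of -0.094.

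The 4 ATG4 proteases, which trim ATG8 proteins before conjugation and release them afterwards, differed in direction. Atg4a (ENSMUSG00000079418) was the most even within groups, with 9.12, 9.31 and 9.32 CPM with vehicle, against 12.9, 13.6 and 12.7 with dexmedetomidine. Atg4c (ENSMUSG00000028550) had the lowest level per kilobase of the list, with 2.34, 1.95 and 2.59 CPM with vehicle, against 3.72, 4.29 and 4.75 with dexmedetomidine. For both, every dexmedetomidine library was above every vehicle library. Log2 fold changes were 0.50 for Atg4a (SE 0.14, edgeR adjusted p = 0.112) and 0.89 for Atg4c (SE 0.24, edgeR adjusted p = 0.112). With the correction Atg4a was at 0.034 and Atg4c at 0.58. A pseudogene named Atg4a-ps exists, so reads of Atg4a can be shared or lost.

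Atg4b, whose product handles most ATG8 proteins, was at -0.044 (SE 0.14), with 21.3 ± 1.65 CPM with vehicle, against 20.7 ± 2.38 with dexmedetomidine (SD, n = 3). Atg4d was at -0.40 (SE 0.19, edgeR adjusted p = 0.25, limma-voom adjusted p = 0.0450). Its dexmedetomidine replicate 1 (45.6 CPM) lay within the vehicle range of 42.1 to 49.2, and replicates 2 and 3 were at 30.4 and 26.9. Without dexmedetomidine replicate 1 the log2 fold change of Atg4d was -0.67, and corrected, with all libraries, -0.24. Exons of the neighbouring gene Kri1, on the opposite strand, overlap Atg4d, and Kri1 had a log2 fold change of -0.46. Likewise Atg2b, Atg9a, Becn1, Lamp1, Map1lc3b and Sqstm1 share exonic sequence with Gskip, Ankzf1, Cntd1, Grtp1, Zcchc14 and Mrnip on the opposite strand, and the strand setting of the counting is not known. The log2 ratio of Atg4b to Atg4c was 2.52, 2.45 and 2.35 with vehicle, against 2.08, 1.93 and 1.56 with dexmedetomidine. These did not overlap, and differed by -0.58 (SE 0.16, exact permutation p = 0.1, adjusted 0.267), and by -0.34 with the correction. Atg4c was at only 1.95 to 4.75 CPM. The added 2 CPM therefore makes both the uncorrected and the corrected difference smaller than the fitted fold changes of both genes imply.

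**Figure D3:**
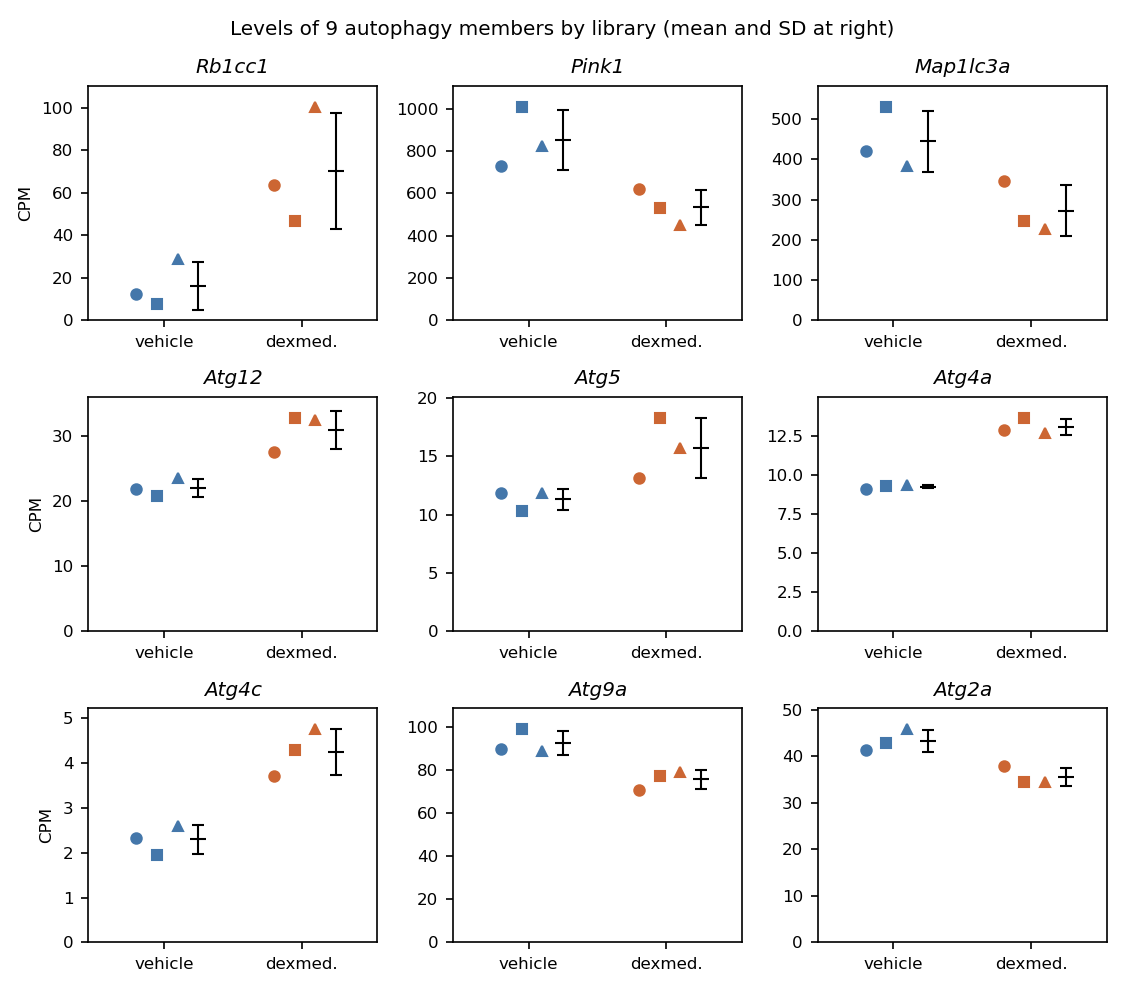
CPM in each library for the 9 members with an unadjusted edgeR p under 0.05 and no overlap between groups, with vehicle in blue, dexmedetomidine in orange and black bars for the mean and SD of 3. Each axis starts at 0, and the vehicle libraries of Atg4a lie between 9.12 and 9.32 CPM while those of Rb1cc1 lie between 7.56 and 29.0.

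ATG8 genes were among the most abundant members, and their levels were compared per kilobase of gene model. After vehicle Map1lc3a had 377 ± 63.8 CPM per kilobase (SD, n = 3), Map1lc3b 143 ± 6.76, Gabarap 102 ± 15.9, Gabarapl1 90.7 ± 9.68 and Gabarapl2 21.8 ± 2.51. Gabarap and Gabarapl1 did not differ beyond their SDs, and the other neighbours in this order did. After dexmedetomidine Map1lc3a was at 231 ± 54.4 and Map1lc3b at 132 ± 15, still the highest of the 5, and Gabarap and Gabarapl1 again lay within an SD of each other, at 90.8 ± 5.87 and 93.2 ± 13.4. The gene model lengths are the authors' and need not match the transcript made in the heart.

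Map1lc3a (ENSMUSG00000027602), which codes for LC3A, measured 421, 529 and 385 CPM with vehicle, against 346, 246 and 227 with dexmedetomidine. Every dexmedetomidine library was below every vehicle library, and dexmedetomidine replicate 1 was the one nearest to vehicle. The log2 fold change was -0.70 (SE 0.19, edgeR adjusted p = 0.109, DESeq2 adjusted p = 0.00777). With the GC and length correction it was -0.20 (edgeR adjusted p = 0.532). Map1lc3b (ENSMUSG00000031812), the LC3 form most often followed as a marker of autophagosomes, measured 239, 259 and 239 CPM with vehicle, against 199, 250.0 and 230.0 with dexmedetomidine. Its groups overlapped (log2 fold change -0.12, SE 0.13, edgeR adjusted p = 0.628), and its corrected value was -0.0052.

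The log2 ratio of Map1lc3a to Map1lc3b was 0.81, 1.03 and 0.68 after vehicle and 0.79, -0.022 and -0.021 after dexmedetomidine. In dexmedetomidine replicates 2 and 3 both genes had about the same CPM, while dexmedetomidine replicate 1 lay within the vehicle range. The difference of -0.59 (SE 0.29) had an exact permutation p of 0.2, adjusted 0.267, and was -0.18 with the correction. In the GABARAP branch, Gabarap was at -0.17 (SE 0.14), Gabarapl1 at 0.040 (SE 0.14) and Gabarapl2 at -0.27 (SE 0.13, edgeR adjusted p = 0.244). Gabarapl2 was lower in every dexmedetomidine library, at 39.5 to 43.4 CPM against 44.5 to 56.2, and at -0.46 with the correction. The log2 ratio of Gabarapl1 to Gabarapl2 went from 1.59, 1.63 and 1.65 to 1.67, 1.87 and 2.20, without overlap (exact permutation p = 0.1, adjusted 0.267). That difference was 0.29 (SE 0.15), 0.15 without dexmedetomidine replicate 3 and 0.62 with the correction.

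**Figure D4:**
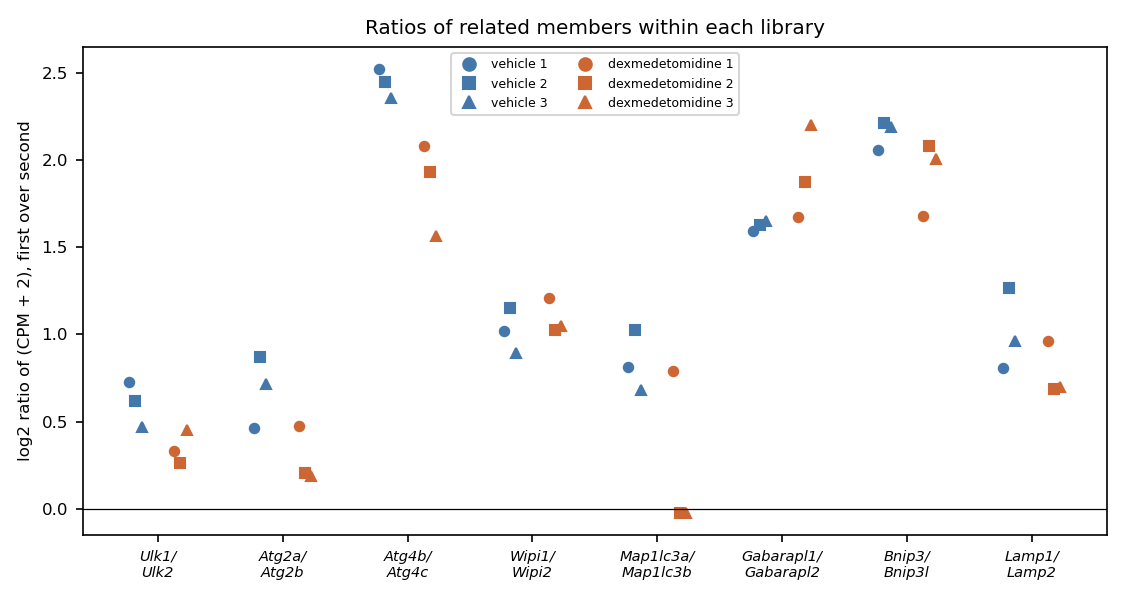
Log2 ratio of (CPM + 2) of the first gene over the second for 8 pairs of related members, in each library, with vehicle in blue and dexmedetomidine in orange. The groups do not overlap for Ulk1/Ulk2, Atg4b/Atg4c and Gabarapl1/Gabarapl2, and for Map1lc3a/Map1lc3b dexmedetomidine replicate 1 lies with the vehicle libraries.

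Of the 3 cargo receptors, Sqstm1 differed most. Sqstm1 (ENSMUSG00000015837) codes for p62, which links ubiquitinated cargo to ATG8 proteins and is itself degraded with it. It measured 443, 633 and 494 CPM with vehicle, against 342, 450.4 and 344 with dexmedetomidine. Dexmedetomidine replicate 2 lay inside the vehicle range, and vehicle replicate 2 was the highest library. The log2 fold change was -0.47 (SE 0.17, edgeR adjusted p = 0.155), and -0.31 with the correction. Without vehicle replicate 2 it was -0.31. The ubiquitin-binding receptor genes Optn and Nbr1 were at -0.020 (SE 0.11) and 0.22 (SE 0.12), with overlapping groups.

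The 4 mitophagy genes held 1 lower and 3 higher members. Pink1 (ENSMUSG00000028756) codes for the kinase that accumulates on depolarised mitochondria and recruits Parkin, and it had the second highest level per kilobase of the list, 319 ± 52.8 CPM per kilobase after vehicle. It measured 729, 1007 and 826 CPM in vehicle replicates 1 to 3, against 619.8, 529.8 and 451 in dexmedetomidine replicates 1 to 3. All 3 dexmedetomidine libraries were below all 3 vehicle libraries. The log2 fold change was -0.68 (SE 0.16, edgeR adjusted p = 0.102, DESeq2 adjusted p = 0.00452), and it ranged from -0.80 to -0.54 with 1 library left out. With the GC and length correction it was -0.36 (edgeR adjusted p = 0.318), still without overlap between groups. Pink1 is abundant in cardiomyocytes. The cardiomyocyte marker level was lower after dexmedetomidine by 0.17 on the log2 scale, as a mean over 12 markers that include Tnnc1, at 0 throughout. The part of that lower level in the Pink1 difference was not tested.

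The receptors that sit in the outer mitochondrial membrane and bind ATG8 proteins without ubiquitin went the other way before correction. Bnip3 (ENSMUSG00000078566), a target of hypoxia signalling, measured 179, 201 and 224 CPM with vehicle, against 149, 278 and 247 with dexmedetomidine. Dexmedetomidine replicate 1 was the lowest of all 6 libraries and replicates 2 and 3 the highest, so all vehicle values lay between dexmedetomidine values (log2 fold change 0.16, SE 0.22, edgeR adjusted p = 0.713). Its relative Bnip3l, also called NIX, was at 0.37 (SE 0.15) and Fundc1 at 0.40 (SE 0.17), both with an unadjusted edgeR p under 0.05 and with 1 dexmedetomidine library inside the vehicle range. With the correction Bnip3, Bnip3l and Fundc1 were at -0.36, -0.15 and -0.41, the other direction. The log2 ratio of Bnip3 to Bnip3l differed by -0.23 (SE 0.13, exact permutation p = 0.2, adjusted 0.267), by -0.11 without dexmedetomidine replicate 1 and by -0.22 with the correction. A pseudogene named Bnip3l-ps exists, so the counts of Bnip3l are less certain.

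At the lysosomal end no member had an unadjusted edgeR p under 0.05. Tfeb (ENSMUSG00000023990), the transcription factor that drives lysosomal and autophagy genes, measured 21.1, 26.9 and 26.4 CPM with vehicle, against 21.5, 21.6 and 14 with dexmedetomidine. Dexmedetomidine replicate 3 was below the other 5 libraries, and the other dexmedetomidine libraries lay within the vehicle range. Its log2 fold change was -0.38 (SE 0.19, edgeR adjusted p = 0.275), -0.20 without dexmedetomidine replicate 3, and 0.018 with the correction.

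Lamp2 (ENSMUSG00000016534) codes for a lysosomal membrane protein needed for autophagosome clearance in heart muscle, and measured 234, 196 and 183 CPM with vehicle, against 200.3, 286 and 279 with dexmedetomidine. The groups overlapped through dexmedetomidine replicate 1. The log2 fold change of Lamp2 was 0.32 (SE 0.16, edgeR adjusted p = 0.286). With the correction it was -0.62 (adjusted p = 0.320), the largest shift between both fits of any member, and Lamp2 combines a low GC content of 38.7% with a gene model of 9552 bases. Lamp1, its abundant relative, was at 0.078 (SE 0.14). The log2 ratio of Lamp1 to Lamp2 differed by -0.23 (SE 0.16, exact permutation p = 0.3, adjusted 0.343), by -0.10 without vehicle replicate 2 and by 0.76 with the correction.

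**Figure D5:**
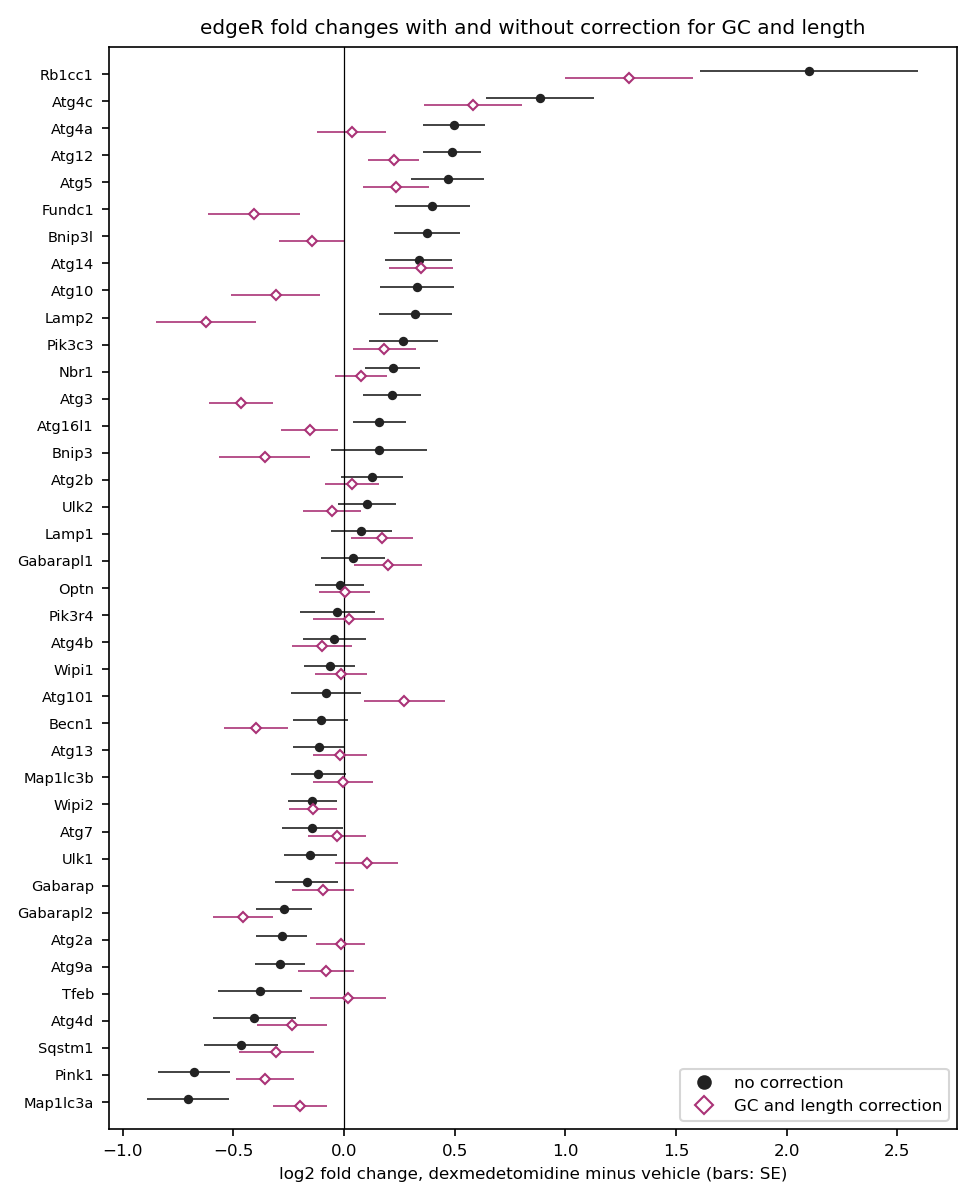
Log2 fold change with SE for the 39 members from edgeR without correction (black circles) and with each library's GC and length trend removed (open diamonds). Rb1cc1 stays the highest in both, and Lamp2, Fundc1, Atg3 and Bnip3 change sides of 0.

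The 4 further lists cover genes around this machinery, and none of their members passed an adjusted edgeR p of 0.05. Of 27 other genes for autophagosome formation and fusion, 3 were higher and 0 lower at an unadjusted edgeR p under 0.05 (median log2 fold change 0.039), beside 12.5% and 9.03% of all genes. Stx17, the SNARE that lets autophagosomes fuse with lysosomes, measured 20.3 ± 4.27 CPM with vehicle, against 29.4 ± 2.54 with dexmedetomidine (SD, n = 3), a log2 fold change of 0.53 that was 0.16 with the correction. The tethering subunit gene Vps41 was at 0.35 and the Beclin 1 partner gene Ambra1 at -0.30, or 0.11 and -0.18 when corrected. Atg9b was at -0.88 (SE 0.42, edgeR adjusted p = 0.258), or -0.62 when corrected. The level of Atg9b was low, at a mean of 1.12 CPM in the vehicle libraries and 0.60 in the dexmedetomidine libraries.

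Other selective autophagy and mitophagy genes had 30 of 32 members tested, 7 higher and 5 lower at an unadjusted edgeR p under 0.05 (median 0.0082), beside 12.5% and 9.03% of all genes. Dnm1l, the GTPase of mitochondrial fission, measured 59.0 ± 16.1 CPM with vehicle, against 124 ± 19.9 with dexmedetomidine, a log2 fold change of 1.07 (SE 0.206, edgeR adjusted p = 0.101). The groups did not overlap, and the corrected log2 fold change was 0.48. The cargo receptor gene Tax1bp1 was at 0.85 (SE 0.172), or 0.088 when corrected. Calcoco1 and Tex264, receptors for the endoplasmic reticulum, were at -0.43 and -0.38, and at -0.17 and 0.0098 with the correction.

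Genes for nutrient and energy control, from mTOR and AMP-activated kinase to FoxO factors, had 6 higher and 6 lower of 39 at an unadjusted edgeR p under 0.05 (median 0.020), beside 12.5% and 9.03% of all genes. Fnip1, a partner of folliculin, measured 31.2 ± 15.8 CPM with vehicle, against 76.8 ± 16.7 with dexmedetomidine, a log2 fold change of 1.30 (SE 0.341) and of 0.53 with the correction. Zkscan3, described as a repressor of autophagy genes, was at 0.65 and 0.47. Stk11, the LKB1 kinase upstream of AMP-activated kinase, was at -0.52 and -0.23, and Akt1s1, an inhibitor subunit of mTOR complex 1, at -0.44 and -0.073.

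Lysosomal membrane, pump and hydrolase genes were lower for 34 of 46 tested members, with a median log2 fold change of -0.16 against 0.0032 over all genes. At an unadjusted edgeR p under 0.05, 7 were lower and 0 higher, beside 9.03% and 12.5% of all genes. Without vehicle replicate 2 the median was -0.098. Groups did not overlap for 15 members, all of them lower, beside 12% of all genes in that direction. With the GC and length correction 34 were again lower, and the median was -0.093 against -0.029 over all genes. Atp6v0c, a subunit of the proton pump that acidifies lysosomes, measured 77.2 ± 6.93 CPM with vehicle, against 55.9 ± 8.34 with dexmedetomidine (log2 fold change -0.47, SE 0.140, edgeR adjusted p = 0.118, DESeq2 adjusted p = 0.0495), and was at -0.39 with the correction. The pump genes Atp6ap2 and Atp6v0e, the genes with the smallest p among those higher, were at 0.29 and 0.23 with overlapping groups, and at -0.34 and -0.017, the other direction, with the correction.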

How the data were processed

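Raw read counts of 37620 genes in 6 libraries, and each gene's length, are the authors' deposited values. Trim Galore and HTSeq with build mm9 made them, per the submitters' processing notes. The sources used here name no versions, aligner, annotation or strand setting, so reads of overlapping genes cannot be told apart, and exons of 13 members overlap another gene. The 5 summary rows stayed out. Reads aligned at more than 1 place were 28.0% to 31.4% of all with vehicle, and 31.2%, 39.5% and 39.4% in dexmedetomidine replicates 1 to 3. The part of this difference in the results was not tested. Reads outside genes were 2.33% to 3.63% and ambiguous reads 1.83% to 2.37%. Symbols (32897 of 37620 genes), GC content of the longest transcript and exon overlaps came from GENCODE M21 (GRCm38), another build, so coordinates are given only for RefSeq promoters.

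Counts were fitted with edgeR 4.0.16 in R 4.3.3 (quasi-likelihood, robust, TMM, filterByExpr, Benjamini-Hochberg over 14738 genes, threshold 0.05), with no covariate. The SE is the log2 fold change divided by the root of F. Levels are CPM, and ratios of members use log2 (CPM + 2) with exact two-sided permutation tests. The labels do not say that each sample was 1 animal, and p-values then reflect only the variation among the 6 samples. No libraries agreed within sampling noise. Alternatives were DESeq2 1.42.0 and limma 3.58.1 (voom with quality weights), other scalings and filters, a replicate block, each library left out, and a correction that removed each library's smooth trend with GC content and length (mgcv 1.9.3). The fits were tested on simulated counts drawn without a trend by GC content or length. There a larger share of DESeq2's calls was false than of edgeR's or limma-voom's. Since the data hold such a trend, this does not show which calls here are false. The members and lists were chosen with earlier results of these data known. Members with an unadjusted edgeR p under 0.05 and no overlap between groups, at most 14, and 8 fixed genes were described by library, and up to 2 genes per direction with the smallest p were named from each other list, of which 1 is not reported here. Atg14 and Gabarapl2 were added after their values were seen.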

Additional observations from a re-analysis of the deposited data

How the results depend on the processing

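The lowest count of any member in a library was 97 reads, so counting depth limited Atg4c most, and the common biological coefficient of variation was 22.8%. Against 0 in edgeR, genes called at an adjusted p of 0.05 numbered 406 with no filter, 1247 in DESeq2, 2063 in limma-voom and 297 in DESeq2 and 0 in limma-voom with the GC and length correction (both chosen after seeing the data), and 0 to 1251 with 1 library left out. Members called numbered 2, 5, 8, 1 and 0 in the same order, and 0 to 3 with 1 library left out. Members at an unadjusted p under 0.05 numbered 7 to 15 with 1 library left out (7 without dexmedetomidine replicate 2). Non-overlapping members numbered 16 to 25 with 1 library left out (25 without dexmedetomidine replicate 1). With fewer libraries any gene's groups stay apart more easily. The shares over all genes were not counted for these settings, so these counts say nothing particular to the members. After GC and length correction 9 members did not overlap, beside 22.3% of all genes. The member median was -0.023 to 0.023 with 1 library left out.

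The labels do not say that replicate numbers pair the samples. Deviations of same-numbered samples from their group means correlated at -0.12, 0.025 and 0.28, and not every sample correlated best with its own number. With so few libraries per group these values cannot decide whether samples were paired. A replicate block gave 636 of 14738 genes and 2 members, Rb1cc1 and Map1lc3a, and the block with the GC and length correction 144 genes and 1 member, Rb1cc1. Of genes tested, 1.88% were called with no filter, 9.43% in DESeq2 and 14% in limma-voom. In the other lists, members called were 2 of 27 formation and fusion genes in limma-voom. Of 30 other selective autophagy genes they were 3 with no filter, 4 with the block and 1 with the block and correction. In DESeq2 they were 4 and in limma-voom 8. Of 39 nutrient and energy control genes they were 3 with the block, 5 in DESeq2 and 9 in limma-voom. Of 46 lysosomal genes they were 2 with the block and correction and 1 in each of DESeq2 and limma-voom. Beside 0 to 1251 of all genes, these lists gave 0 to 1, 0 to 4, 0 to 5 and 0 calls with 1 library left out. Their medians were -0.011, -0.060, -0.066 and -0.093 with the correction and -0.018, -0.056, -0.051 and -0.093 with the block and correction. The median of other selective autophagy genes was 0.038 at a mean CPM of at least 5 and -0.010 to 0.054 with 1 library left out, that of formation and fusion genes -0.0091 to 0.048 with 1 library left out, and that of nutrient and energy control -0.042 in limma-voom and -0.017 to 0.042 with 1 library left out. For lysosomal genes it was -0.20 to -0.098 with 1 library left out.

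With the GC and length correction these members had the other direction, the second value being that of the replicate block with the correction: Ulk1 0.10 and 0.087, Ulk2 -0.054 and -0.049, Atg101 0.27 and 0.27, Pik3r4 0.021 and 0.032, Atg3 -0.47 and -0.45, Atg10 -0.31 and -0.28, Atg16l1 -0.16 and -0.15, Optn 0.0030 and 0.0061, Fundc1 -0.41 and -0.37, Bnip3 -0.36 and -0.39, Bnip3l -0.15 and -0.15, Lamp2 -0.62 and -0.59, and Tfeb 0.018 with the correction alone. The log2 ratios of Ulk1 to Ulk2 and of Lamp1 to Lamp2 were 0.14 and 0.76 with the correction. In limma-voom Pik3r4 was at 0.0047 and Optn at 0.0039. With 1 library left out, Atg101 ranged from -0.20 to 0.013, Pik3r4 from -0.16 to 0.12, Atg4b from -0.10 to 0.049, Gabarapl1 from -0.068 to 0.14, Optn from -0.053 to 0.042, Bnip3 from -0.023 to 0.38 and Lamp1 from -0.015 to 0.18. The causes were not tested. No direction of a member differed with DESeq2 size factors, nuclear genes only, no filter, a minimum mean CPM of 5 (which left out Atg4c), DESeq2 or the replicate block without the correction.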
